A study of Caenorhabditis elegans with 12 samples.

Results

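Phosphatidylcholine, the main membrane phospholipid, can be made in nematodes from phosphocholine that is built by methylating phosphoethanolamine, and the methyl groups come from one-carbon metabolism. The 8 genes described here encode enzymes of that route: pmt-1 and pmt-2 (phosphocholine synthesis), sams-1, ahcy-1 and metr-1 (the methionine cycle), mthf-1 and mel-32 (the folate cycle that feeds it) and cbs-1 (the exit towards cysteine). They are 8 of the 20362 genes counted. The list was selected on a reading of the 2-fold libraries, in which pmt-2 had no reads in miR-51Fam null embryos. How the other 7 genes were picked is not given. The null against wild-type comparison at the 2-fold stage is therefore given here as a description, with no test.

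The study compared whole Caenorhabditis elegans embryos without the miR-51 family of microRNAs with wild-type embryos at stages up to body elongation. miR-51Fam null embryos came from strain MLC1800, which carries the alleles nDf67 and n4100 on chromosome IV and nDf58 on chromosome X. That strain is kept with the extrachromosomal array lucEx1057, which holds a fosmid with the miR-54 cluster and 2 GFP markers, and how embryos without the array were picked is not given in the sources used here. Wild-type embryos were N2. Embryos of each genotype were taken as 190-cell, bean-stage and 2-fold embryos, with 2 libraries per group and 50 embryos per library, from adult hermaphrodites grown at 20 °C on OP50 bacteria. The labels name no other treatment, and all 12 libraries carried the same batch label. mRNA was measured by QuantSeq, which primes on the poly(A) tail and gives 1 read near the 3′ end of a captured transcript, so CPM (reads of a gene per common library total) does not grow with transcript length.

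The 12 libraries held 11081 to 9558104 reads assigned to genes, and null 190-cell replicate 1 was far below the other 11, which held at least 887059. Reads appeared to copy molecules many times over. An estimate from the zeros among low genes gave 10132 molecules for null 190-cell replicate 1, whereas each other library had 108775 to 250705. Of the 96 values of the 8 genes in 12 libraries, 8 were 0 reads and 26, zeros included, rested on fewer than 5 estimated molecules, so single CPM values are coarse. Of these 8 zeros, 4 were in null 190-cell replicate 1. Levels below are CPM on TMM-scaled library sizes, given for replicate 1 and then replicate 2. Fitted log2 changes weight the deep libraries more than the shallow one, so at the 190-cell stage they can differ from a ratio of the CPM means. The study calls the libraries of a group independent duplicates, but the labels do not say that they came from separate cultures, so p-values measure the spread between these libraries.

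The level of pmt-2 fell between the 190-cell and bean stages in both genotypes, and sams-1 rose over the same interval in null embryos. None of the 8 genes passed the test between genotypes at the 190-cell or the bean stage, where 0.216% and 0.0663% of all genes tested did. In 2-fold embryos, 4 of the 8 genes (pmt-1, pmt-2, sams-1 and mel-32) were lower in both null libraries than in either wild-type library, and the other 4 overlapped between genotypes. Of all 12062 genes tested, 25.9% were lower in that way at this stage, and nothing is read from the count because the comparison chose the list. The plot of CPM by library shows these levels for each gene.

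**Figure D1:**
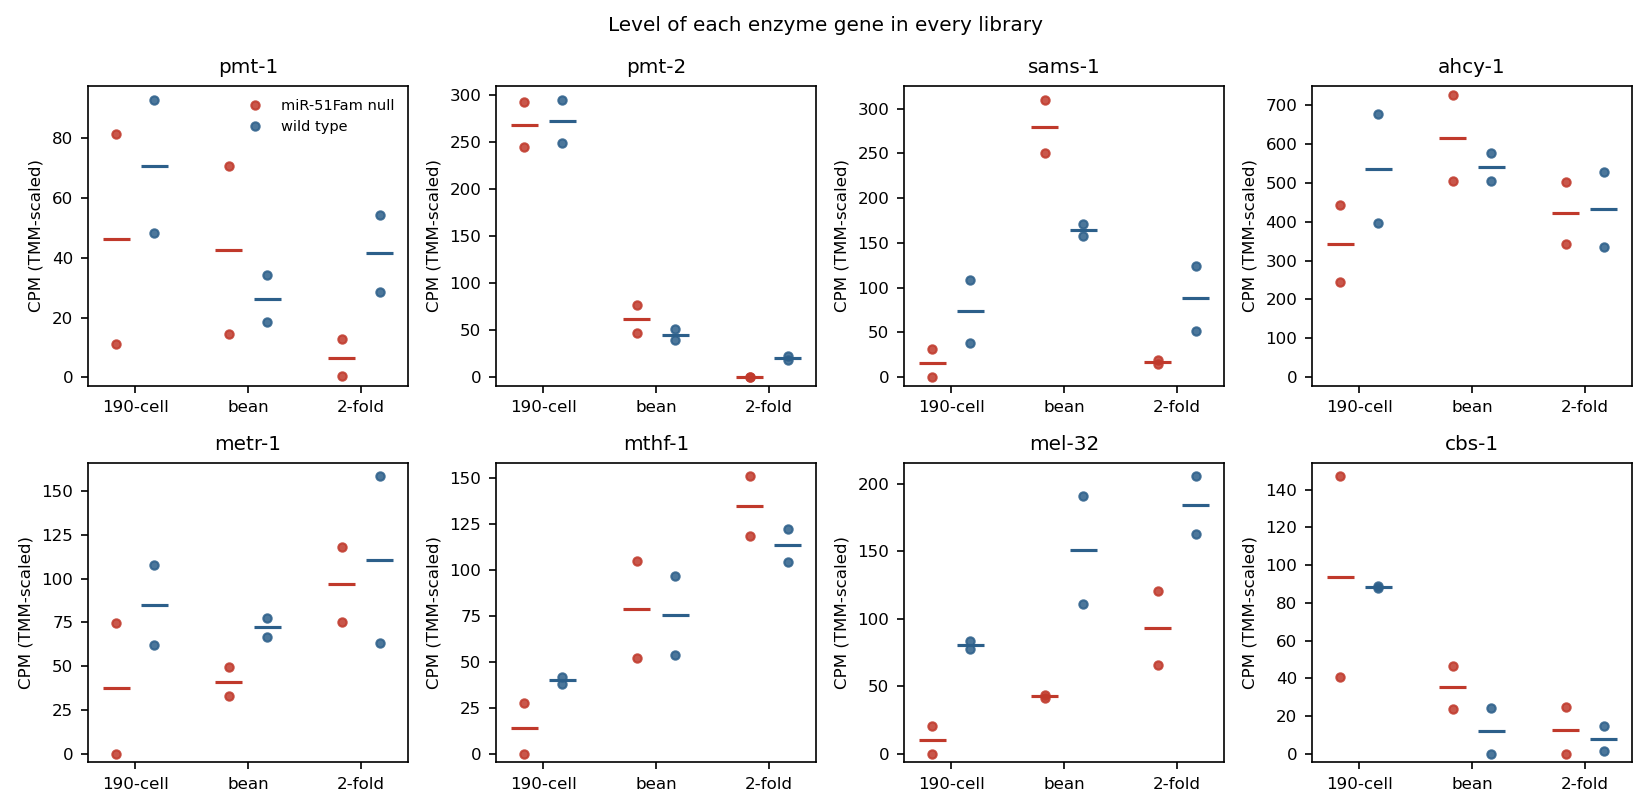
Level of each of the 8 enzyme genes in CPM (TMM-scaled library sizes) by stage; each point is 1 library, the horizontal bar is the mean of 2 libraries, and miR-51Fam null embryos (red) stand left of wild-type embryos (blue). pmt-2 was lower at each later stage in both genotypes and was at 0 in both null 2-fold libraries, and sams-1 was highest at the bean stage in both genotypes.

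PMT-2 catalyses the last methylations of phosphoethanolamine to phosphocholine. Its gene, pmt-2 (WBGene00018811), lies on chromosome V from 4628580 to 4635263 on the plus strand in WBcel235, and its measured reads are not assigned here to an exon or UTR because the files count whole genes. At the 190-cell stage pmt-2 had 244 and 292 CPM in null embryos, against 249 and 294 CPM in wild-type embryos. At the bean stage it had 47.0 and 77.1 CPM in null embryos, against 39.8 and 50.8 CPM in wild-type embryos. The genotypes overlapped at these 2 stages. By the 2-fold stage no pmt-2 read was found in either null library, against 18.7 and 23.0 CPM in wild-type embryos. The order of the stages was the same in both genotypes, with the 190-cell stage highest and the 2-fold stage lowest, and the libraries of neighbouring stages did not overlap.

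By edgeR's quasi-likelihood test with Benjamini-Hochberg adjustment, pmt-2 fell in null embryos from the 190-cell to the bean stage by 2.14 on the log2 scale (SE 0.59, adjusted p = 0.0270, n = 2 libraries per stage). In wild-type embryos pmt-2 fell over that interval by 2.58 (SE 0.57, adjusted p = 0.00454, edgeR). The 2 changes differed by 0.44 (SE 0.79, unadjusted p = 0.581 by edgeR's interaction test), which was not distinguishable from 0. The wild-type call was lost without wild-type bean replicate 1 (-2.44, adjusted p = 0.0637). The null call was lost without null 190-cell replicate 2 (-2.33, adjusted p = 0.292), which leaves only the shallow library at that stage, and without null bean replicate 1 (-1.98, adjusted p = 0.135).

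Between genotypes pmt-2 differed by 0.02 on the log2 scale in 190-cell embryos (SE 0.57) and by 0.46 in bean embryos (SE 0.55), within the spread between libraries. In 2-fold embryos the 2 wild-type libraries held 114 and 19 pmt-2 reads, which correspond to about 3.30 and 5.16 estimated molecules. The wild-type 2-fold mean was 1.68-fold above a floor of 3 estimated molecules over the null group (12.4 CPM). That ratio takes the wild-type mean as exact, though it rests on about 8.46 estimated molecules in all. It is therefore a description and not a lower limit on the difference. With 3 reads as the floor the ratio would be 67.4-fold, so its size rests on whether reads or molecules are counted. The null bean mean was 4.999-fold above the same molecule floor of the null 2-fold group. In wild-type embryos the fitted change from bean to 2-fold was -1.13 (SE 0.57), given without a test because the libraries chose the gene. The members nearest to the no-read rule were pmt-1, with 1 and 95 reads in the null 2-fold libraries, and cbs-1, with 56 and 0. Outside the 8 genes, the folate-pathway gene tyms-1 also had no reads in either null 2-fold library, against 51 and 30 reads in wild-type ones. The absence of reads was thus not particular to pmt-2 in this pathway. In whole embryos a lower level can stand for fewer cells with the transcript or for less of it per cell, and these cannot be told apart.

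The gene just upstream on the same strand, sumv-2, ends 41 bp before pmt-2 starts, and it stayed detectable where pmt-2 was not. At the 2-fold stage sumv-2 had 72.8 and 105 CPM in null embryos, against 79.7 and 84.7 CPM in wild-type embryos, and the genotypes overlapped. The other protein-coding gene within 10 kb, soc-1, starts 7689 bp after pmt-2. It had 5.36 and 18.8 CPM in null 2-fold embryos, against 18.7 and 18.1 CPM in wild-type ones, and these overlapped as well.

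Summed markers of the germline and of adult yolk were lower in null libraries, and their values stand beside the 2-fold levels of pmt-2, pmt-1, sams-1 and mel-32. Summed over 5 germline and maternal genes (pie-1, pos-1, mex-5, nos-2, pgl-1), null 2-fold libraries had 45.5 and 26.7 CPM, against 508 and 1596 CPM in wild-type 2-fold libraries, with mex-5 at 0 in both null libraries. Summed over 5 adult yolk and sperm genes (vit-2, vit-5, vit-6, msp-142, msp-78), null 2-fold libraries had 0 and 0.268 CPM, against 666 and 2343 CPM. vit-5, msp-142 and msp-78 were at 0 in null embryos. In wild-type 2-fold libraries msp-142 had 0 and 3.63 CPM and msp-78 had 0 and 13.3 CPM, so the vit genes made up nearly all of the sum. At the bean stage msp-78 had 7.91 and 0 CPM in null embryos and no reads in wild-type ones. A difference in sperm transcripts was therefore not shown. vit genes encode yolk proteins of the adult intestine and msp genes encode sperm proteins, so neither set marks an embryonic tissue. These sums were also apart at the earlier stages. For yolk and sperm genes they were 0 and 2.25 CPM in null 190-cell libraries, against 2728 and 350 CPM in wild-type ones. They were 27.4 and 0.224 CPM in null bean libraries, against 214 and 126 CPM in wild-type ones. Germline and maternal transcripts showed the same order. Their sums were 81.4 and 236 CPM in null 190-cell libraries, against 1944 and 611 CPM in wild-type ones. They were 470 and 21.9 CPM in null bean libraries, against 1015 and 1492 CPM in wild-type ones. pmt-2 overlapped between genotypes at those 2 stages, where the sums did not. The part of these transcripts in the 2-fold differences of the 4 genes was not tested. Sums for tissues of the embryo itself overlapped between genotypes at the 2-fold stage for intestine, body wall muscle and pharynx. They did not for epidermis, whose sum was higher in null embryos, and neurons, whose sum was lower. The 5 epidermal genes had 2196 and 2119 CPM in null libraries, against 2017 and 1410 CPM in wild-type libraries. Of these, dpy-7, elt-3 and che-14 were higher in both null libraries, lin-26 was lower and vab-10 overlapped. The 3 neuronal genes had 402 and 385 CPM in null libraries, against 431 and 408 CPM in wild-type libraries. Only snb-1 among them was lower in both null libraries. rab-3 was higher (27.2 and 12.7 CPM, against 7.56 and 7.26 CPM) and unc-119 overlapped. The 3 pharyngeal genes had 131 and 134 CPM in null libraries, against 185 and 125 CPM in wild-type libraries. Of these, myo-2 was at 0 in null embryos and nearly absent in wild-type ones (0 and 3.63 CPM). The overlap also held for 4 body wall muscle genes, with 1783 and 1474 CPM in null libraries, against 1918 and 1535 CPM in wild-type libraries, and for 5 intestinal genes, with 572 and 389 CPM in null libraries, against 641 and 423 CPM in wild-type libraries. Within the intestinal sum the genes went different ways at the 2-fold stage. elt-2, a regulator of intestinal fate, was lower in null embryos (18.7 and 21.5 CPM, against 67.4 and 38.7 CPM in wild-type embryos). elt-7 was lower too (9.82 and 0 CPM, against 10.9 and 20.6 CPM). ges-1 was higher in null embryos (18.3 and 17.0 CPM, against 7.89 and 12.1 CPM), and act-5 and ifb-2 overlapped between genotypes.

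**Figure D2:**
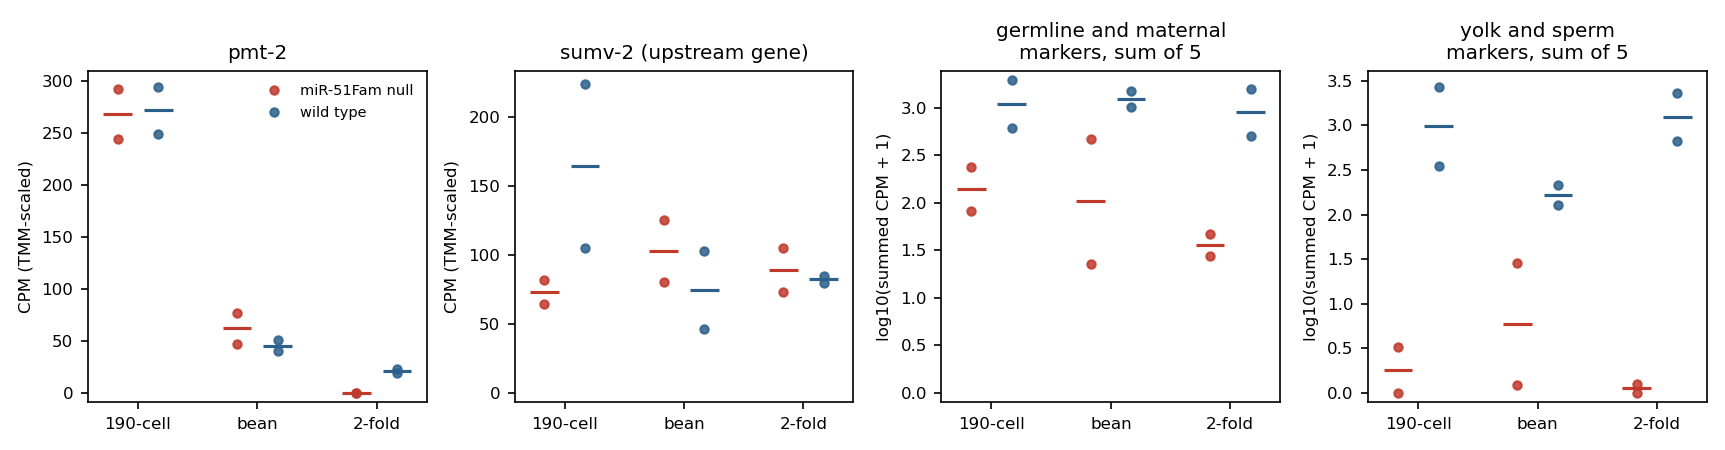
CPM of pmt-2 and of the gene upstream of it, sumv-2, and log10(summed CPM + 1) of 5 germline and maternal markers and of 5 adult yolk and sperm markers, by stage; points are libraries, bars are means of 2, and miR-51Fam null (red) is left of wild type (blue). sumv-2 overlapped between genotypes at the 2-fold stage, where pmt-2 was at 0 in null embryos, and the 2 marker sums were lower in null embryos at all 3 stages.

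PMT-1 catalyses the first methylation of phosphoethanolamine. Its gene, pmt-1 (WBGene00022781, chromosome II, 5278090 to 5282523, minus strand), was low and varied between replicates. It had 81.4 and 11.2 CPM in null 190-cell embryos, against 48.4 and 93.0 CPM in wild-type ones. At the bean stage it had 70.7 and 14.5 CPM in null embryos, against 18.4 and 34.3 CPM in wild-type embryos. In 2-fold embryos it had 0.446 and 12.7 CPM in null embryos, against 28.6 and 54.4 CPM in wild-type embryos. The genotypes overlapped at the first 2 stages and separated at the third. The null replicates of the first 2 stages differed from each other more than the genotype means did, and the 190-cell values of 81.4 and 11.2 CPM rest on 2 and 20 reads. The fitted 2-fold change was -2.58 (SE 1.17), and it was -6.38 without null 2-fold replicate 2 and -1.58 without null 2-fold replicate 1. At the 190-cell and bean stages the fitted changes were -1.55 (SE 1.46) and 0.68 (SE 1.11). The first was 0.56 without null 190-cell replicate 2 and the second was -0.78 without null bean replicate 1, so neither has a settled direction. No stage change of pmt-1 that was tested passed.

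SAMS-1 is an S-adenosylmethionine synthetase, which makes the methyl donor that the PMT enzymes use. In C. elegans its loss is known to lower phosphatidylcholine and to raise lipid stores. The gene, sams-1 (WBGene00008205, chromosome X, 11965962 to 11969893, plus strand), had 0 and 31.4 CPM in null 190-cell embryos, against 109 and 38.7 CPM in wild-type ones. At the bean stage it had 250 and 310 CPM in null embryos, against 171 and 158 CPM in wild-type embryos. By the 2-fold stage it had 14.7 and 18.8 CPM in null embryos, against 52.0 and 125 CPM in wild-type embryos. The genotypes did not overlap at any stage, with null embryos lower at the 190-cell and 2-fold stages and higher at the bean stage, and the bean stage was the highest in both genotypes.

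In null embryos sams-1 rose from the 190-cell to the bean stage by 3.33 on the log2 scale (SE 0.76, adjusted p = 0.00563, edgeR). The shallow library, with 0 sams-1 reads, did not carry that call, which without it was 3.10 (adjusted p = 0.0202). Without the other null 190-cell library, replicate 2, the stage was left with 0 reads and the call was lost (adjusted p = 0.268). By voom with quality weights neither this call nor that of pmt-2 in null embryos held (adjusted p = 0.312 for sams-1 and 0.256 for pmt-2). In wild-type embryos the change was 1.15 (SE 0.60, adjusted p = 0.444, edgeR). The difference between the 2 changes was 2.18 (SE 0.93, unadjusted p = 0.0264, adjusted p = 0.758 by edgeR's interaction test), so the rise was not shown to differ between genotypes. It ran from 1.04 to 11.49 when libraries were left out in turn. From the bean to the 2-fold stage sams-1 changed by -0.91 in wild-type embryos (SE 0.60, adjusted p = 0.506, edgeR). The fitted change in null embryos over that interval was -4.05 (SE 0.67), given without a test. Between genotypes sams-1 differed by -1.42 at the 190-cell stage (SE 0.72, adjusted p = 0.732) and by 0.77 at the bean stage (SE 0.59, adjusted p = 0.802), neither past the threshold in edgeR. At the 2-fold stage the fitted difference was -2.37 (SE 0.63), and with single libraries left out it lay between -2.89 and -1.76.

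AHCY-1 hydrolyses S-adenosylhomocysteine, the product left by methyl transfer, and its gene had the highest mean CPM of the 8 in every group. ahcy-1 (WBGene00019322, chromosome I, 6836469 to 6838140, plus strand) had 244 and 444 CPM in null 190-cell embryos, against 676 and 397 CPM in wild-type ones. It had 725 and 505 CPM in null bean embryos, against 506 and 576 CPM in wild-type ones. By the 2-fold stage it had 502 and 344 CPM in null embryos, against 334 and 529 CPM in wild-type embryos. The genotypes overlapped at every stage, and no tested change passed. The fitted genotype differences were -0.52 (SE 0.43), 0.18 (SE 0.41) and -0.03 (SE 0.41) at the 190-cell, bean and 2-fold stages.

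METR-1 is the methionine synthase, which rebuilds methionine from homocysteine with a methyl group from folate. metr-1 (WBGene00010988, chromosome II, 10926561 to 10931078, plus strand) had 0 and 74.7 CPM in null 190-cell embryos, against 108 and 62.0 CPM in wild-type ones. It had 49.6 and 32.9 CPM in null bean embryos, against 77.8 and 66.7 CPM in wild-type ones. In 2-fold embryos it had 118 and 75.1 CPM in null embryos, against 63.3 and 159 CPM in wild-type embryos. Only at the bean stage did the genotypes not overlap, with null embryos lower, and the fitted difference there was -0.81 (SE 0.68, adjusted p = 0.824, edgeR), short of the threshold. No stage change of metr-1 that was tested passed.

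MTHF-1, methylenetetrahydrofolate reductase, supplies the methyl-folate that METR-1 uses. mthf-1 (WBGene00015512, chromosome II, 7773904 to 7777823, minus strand) is overlapped on the opposite strand by C06A8.6, which had 0 reads in all 12 libraries. mthf-1 had 0 and 27.5 CPM in null 190-cell embryos, against 41.8 and 38.1 CPM in wild-type ones. It had 105 and 52.3 CPM in null bean embryos, against 53.9 and 97.0 CPM in wild-type ones. At the 2-fold stage it had 118.7 and 151 CPM in null embryos, against 105 and 122 CPM in wild-type embryos. Its mean was higher at each later stage in both genotypes, the opposite order to pmt-2. No tested step passed, and the largest of them, from the 190-cell to the bean stage in null embryos, was 1.69 (SE 0.76, unadjusted p = 0.0334, adjusted p = 0.266, edgeR).

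MEL-32 is serine hydroxymethyltransferase, which moves a carbon unit from serine to folate, and its gene was lower in null embryos at all 3 stages without passing the test at either stage tested. mel-32 (WBGene00003214, chromosome III, 6440145 to 6443000, minus strand) had 0 and 20.2 CPM in null 190-cell embryos, against 83.4 and 77.5 CPM in wild-type ones. It had 43.3 and 41.6 CPM in null bean embryos, against 111 and 191 CPM in wild-type ones. In 2-fold embryos it had 121 and 65.5 CPM in null embryos, against 163 and 206 CPM in wild-type embryos. The genotypes did not overlap at any stage. The germline, yolk and sperm marker sums were lower in null embryos at the same stages, and their part in the mel-32 levels was not tested. The fitted differences were -2.13 at the 190-cell stage (SE 0.73, unadjusted p = 0.00684, adjusted p = 0.360, edgeR) and -1.83 at the bean stage (SE 0.59, unadjusted p = 0.00439, adjusted p = 0.356, edgeR). By voom with quality weights the bean difference did pass (adjusted p = 0.0429), in a fit that called 305 of 12062 genes, against 8 in edgeR. Over the alternatives its adjusted p at the bean stage ran from 0.0429 to 0.733. The fitted 2-fold difference was -0.99 (SE 0.58), given without a test.

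CBS-1, cystathionine beta-synthase, takes homocysteine out of the cycle towards cysteine. cbs-1 (WBGene00013866, chromosome X, 10054275 to 10057528, plus strand) had 40.7 and 147 CPM in null 190-cell embryos, against 87.7 and 88.8 CPM in wild-type ones. It had 23.7 and 46.7 CPM in null bean embryos, against 0 and 24.4 CPM in wild-type ones. At the 2-fold stage it had 25.0 and 0 CPM in null embryos, against 1.48 and 14.5 CPM in wild-type embryos. Its mean was highest at the 190-cell stage in both genotypes, and replicates of a group ran from 0 to a clear level, so the fitted changes had the widest errors of the 8 genes (0.32 with an SE of 2.202 in 190-cell embryos, 1.52 with an SE of 2.19 in bean embryos). No change of cbs-1 passed the test in edgeR with all libraries and no replicate block or molecule scaling.

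Counted over the list, 0 of 8 genes passed the test between genotypes at the 190-cell stage in edgeR (adjusted p from 0.360 to 1), where 0.216% of all 12062 genes tested were called. At the bean stage 0 of 8 passed (adjusted p from 0.356 to 1), against 0.0663% of all genes. At each of these stages 1 of the 8, mel-32, had an unadjusted p under 0.05. DESeq2 called 0 at either stage, and voom called 0 at the 190-cell stage and 1, mel-32, at the bean stage. Over all 12062 genes DESeq2 called 71 and 62 at these stages, and voom called 0 and 305. For the difference of the genotype effect between bean and 190-cell stages 0 of 8 passed, against 0.0912% of all genes. There 1 (sams-1) had an unadjusted p under 0.05 in edgeR, as did 707 of all 12062 genes. DESeq2 and voom called 0 of the 8 for it, and 24 and 0 of all genes. With adjusted shares this low in edgeR, a list of 8 would rarely hold a called gene, so the counts of 0 say little about these genes.

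For the stage changes the background was higher. From the 190-cell to the bean stage 2 of 8 genes passed in null embryos (sams-1 higher and pmt-2 lower), against 5.31% of all genes. In wild-type embryos 1 of 8 passed (pmt-2, lower), against 5.02%. From the bean to the 2-fold stage 0 of the 7 genes other than pmt-2 passed in wild-type embryos, against 4.35% of all genes. Of the 7, 0 had an unadjusted p under 0.05 in edgeR, against 1830 of all 12062 genes. DESeq2 called 0 of the 7, against 842 of all genes, and voom called 1 (sams-1), against 2472.

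Counted by overlap alone, both null libraries were above both wild-type libraries for 0 of 8 genes at the 190-cell stage, against 2.68% of all genes tested. They were below for 3 of 8 (sams-1, mthf-1 and mel-32), against 25.0%, at a stage where the shallow null library gave 0 for each of these 3. At the bean stage 1 of 8 was higher (sams-1), against 17.1%, and 2 of 8 were lower (metr-1 and mel-32), against 16.7%. These counts were near the background. For 2-fold embryos 0 of 8 were higher, against 16.1%, and 4 of 8 were lower (pmt-1, pmt-2, sams-1 and mel-32), against 25.9%. The list was selected on this last comparison, so nothing is read from its count.

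**Figure D3:**
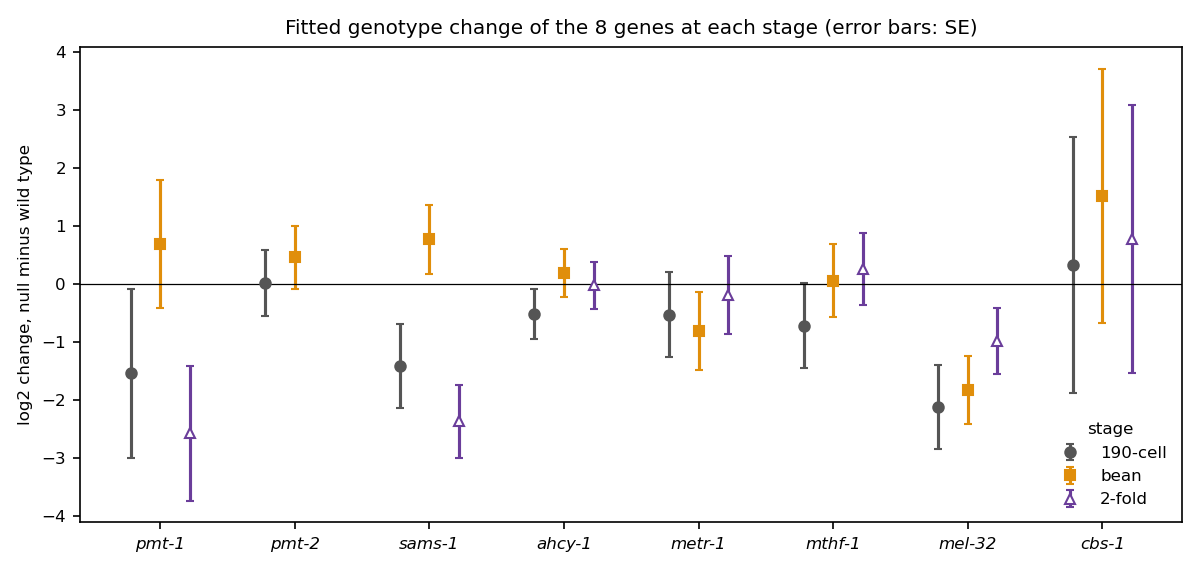
Fitted log2 change (miR-51Fam null minus wild type, edgeR) of the 8 genes at the 190-cell (circles), bean (squares) and 2-fold (open triangles) stages; error bars are SE and each group is 2 libraries. pmt-2 has no 2-fold point because its null libraries were at 0, the 2-fold points are a description with no test, and the sams-1 estimate was 0.77 at the bean stage and -2.37 at the 2-fold stage.

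Other genes of these pathways came from 6 lists of 43 genes: the rest of the methionine cycle, folate and glycine cleavage, transsulfuration, choline and the Kennedy pathway (the route from free choline), polyamine synthesis, and SBP-1 with lipid synthesis. Of these 42 were found in the files and 39 passed the count minimum. Between genotypes 0 of 39 were called in 190-cell embryos, and in bean embryos 0 were higher and 1 was lower. The median list change was -0.46 at the 190-cell stage, where the median of all genes was -0.20, and 0.26 at the bean stage, where it was 0.00. For the difference of the genotype effect between those stages, 0 of 39 were called. By stage, null embryos had 1 higher and 0 lower from 190-cell to bean. Wild-type embryos had 1 higher and 1 lower from 190-cell to bean, and 0 higher and 2 lower from bean to 2-fold. Of all 12062 genes tested, 8 were called higher and 18 lower between genotypes at the 190-cell stage, and 6 and 2 at the bean stage. For the difference of the genotype effect 7 were higher and 4 lower. From 190-cell to bean 558 were higher and 83 lower in null embryos, and 504 and 102 in wild-type ones. From bean to 2-fold in wild-type embryos 381 were higher and 144 lower.

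The gene lower at the bean stage was alh-3, a formyltetrahydrofolate dehydrogenase that lies beside the deleted mir-51. It had 0 and 0.224 CPM in null bean embryos, against 96.8 and 56.7 CPM in wild-type ones. The fitted change was -8.63 (SE 1.24, adjusted p = 0.00199, edgeR), and its size depends on the 1 read that the null group held. alh-3 was also lower in both null libraries at the other stages. In 190-cell embryos it had no reads in null libraries, against 5.56 and 23.2 CPM in wild-type ones, without passing the test. In 2-fold embryos it had 8.93 and 8.45 CPM in null libraries, against 213 and 184 CPM, given without a test.

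fasn-1, the fatty acid synthase, shared with sams-1 a peak at the bean stage. It had 122 and 117 CPM in null 190-cell embryos and 1112 and 1075 CPM in null bean embryos. In wild-type 190-cell embryos it had 65.7 and 175 CPM, and in wild-type bean embryos 642 and 567 CPM. Its 2-fold levels were 327 and 245 CPM in null embryos, against 269 and 118.6 CPM in wild-type embryos, all below the bean levels of the same genotype. The rise was 3.21 in null embryos (SE 0.55, adjusted p = 0.000299) and 2.33 in wild-type embryos (SE 0.47, adjusted p = 0.00159) by edgeR. The null call was lost without null 190-cell replicate 2 (2.80). It was also lost by voom with quality weights, which called 1 of 12062 genes in that comparison. fasn-1 then changed by -1.63 from bean to 2-fold in wild-type embryos (SE 0.46, adjusted p = 0.0370, edgeR), a call that was lost under 10 of 21 alternatives.

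pcyt-1, the rate-limiting enzyme that uses phosphocholine to make phosphatidylcholine, had 110 and 88.6 CPM in wild-type bean embryos and 14.6 and 12.1 CPM in wild-type 2-fold embryos. It fell by 2.86 (SE 0.67, adjusted p = 0.00802, edgeR), with adjusted p of 0.0612 to 0.0985 without wild-type bean replicate 1 or either wild-type 2-fold library. In null 2-fold embryos pcyt-1 had 11.2 and 2.82 CPM. cth-1, a cystathionine gamma-lyase that acts after CBS-1, had 46.7 and 46.5 CPM in wild-type 190-cell embryos and 0 and 2.49 CPM in wild-type bean embryos. It fell by 5.12 (SE 1.32, adjusted p = 0.0159, edgeR), and the call was lost without wild-type bean replicate 1 (-4.24, adjusted p = 0.135).

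The remaining S-adenosylmethionine synthetase genes differed from sams-1 at the bean stage in wild-type embryos, where their group means were no peak. sams-3 had 44.3 and 66.4 CPM in null bean embryos, against 16.5 and 34.8 CPM in wild-type ones, and its wild-type mean was lowest at that stage. In null embryos its mean peaked at the bean stage, as for sams-1 (31.4, 55.4 and 24.8 CPM by stage). At the 190-cell stage sams-3 was lower in both null libraries (0 and 62.9 CPM, against 180 and 88.8 CPM). It was higher in both at the bean stage, the same order as sams-1, and overlapped at the 2-fold stage. Its fitted genotype changes were -1.43, 1.10 and -1.77 by stage. The first 2 did not pass and the third is given without a test. sams-4 had 38.5 and 79.8 CPM in null bean embryos, against 61.2 and 79.6 CPM in wild-type ones, and the genotypes overlapped. sams-5 had no reads in any 2-fold library. Levels of paralogs are uncertain, because reads that map to more than 1 place were left out of the counts.

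Of 6028 genes with a mean of 20 CPM or more, those most like pmt-2 over the 6 group means were ztf-29 (Pearson's r of log2(CPM + 1) of 0.998), aspm-1 (0.998) and cdl-1 (0.997). In 2-fold embryos ztf-29 had 0 and 7.92 CPM in null embryos, against 73.0 and 69.2 CPM in wild-type ones, and cdl-1 had 9.38 and 9.79 CPM in null embryos, against 84.5 and 316 CPM in wild-type ones. aspm-1 had 0 and 0.268 CPM in null 2-fold embryos, against 0 and 27.9 CPM in wild-type ones, and its genotypes overlapped. The genes most like sams-1 were F55H2.7 (0.990), ggtb-1 (0.988) and znf-598 (0.986). With 6 points and so many genes such values are a description, and they include the groups that chose pmt-2. Among the 8 genes, over the 11 deeper libraries, r between pairs ran from -0.82 (pmt-2 with mthf-1) to 0.63 (pmt-1 with pmt-2, and sams-1 with ahcy-1), and the libraries share stage and genotype.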

How the data were processed

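The authors deposited 1 file per library of HTSeq counts for 20362 genes, not normalised, plus 5 summary lines that enter neither the library sizes nor the tests. Per the methods, UMIs were extracted, reads were trimmed and mapped to WBcel235 with STAR, and UMI duplicates were removed before counting. Deep libraries nevertheless had expressed genes with no read, so the deposited counts were treated as reads of which many can copy 1 molecule. Whether they were deduplicated was not settled, and the ratio of wild-type pmt-2 to the null floor depends on it. Tool versions and the strand setting are not given in the sources used here. Reads assigned to genes made up 31.8% to 53.7% of a file, 4.00% to 8.65% lay outside genes, 0.0472% to 0.0882% were ambiguous and 39.3% to 63.5% mapped to more than 1 place. Gene identifiers were matched to symbols with the WBcel235 annotation, and 20116 had a symbol.

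Genes needed a total count of at least 20 to be tested, and 12062 passed, all 8 enzyme genes among them. The counts were fitted in edgeR 4.0.16 (R 4.3.3) with TMM scaling, a mean for each of the 6 groups and two-sided robust quasi-likelihood F tests. Adjustment was over all genes tested (Benjamini-Hochberg), and genes were called at an adjusted p under 0.05. SE came from the F statistic. CPM is on TMM-scaled library sizes. Reads per molecule were estimated in each library from genes at 1 to 3 CPM in the other libraries, by setting their mean reads against their share of zeros under Poisson sampling, and the floor was 3 estimated molecules over a group. Zeros of genes that are absent at a stage could raise that estimate. Floors cover counting error only. The alternatives were DESeq2 1.42.0, voom with quality weights in limma 3.58.1, other scalings and filters, a replicate block, molecule-scaled counts, fits of the compared groups alone and each library left out in turn. The genes and lists were chosen with earlier results of these data known. The genes named are the 8 enzymes, genes of the pathway lists called in a tested comparison (at most 3 per direction), alh-3, protein-coding genes within 10 kb of pmt-2 and the 3 genes most like pmt-2 and sams-1. The remaining sams genes, tyms-1, cka-1 and psd-1 were added after their values were seen. No sequence is shown.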

Additional observations from a re-analysis of the deposited data

Results flagged for a closer look

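Null and wild-type libraries of sams-1 separated in opposite directions at different stages. From the 190-cell stage, where both null libraries were lower (0 and 31.4 CPM, against 109 and 38.7 CPM in wild-type embryos), to the bean stage, where both were higher (250 and 310 CPM, against 171 and 158 CPM), the genotype effect differed by 2.18 on the log2 scale. That difference did not pass edgeR's interaction test (SE 0.93, adjusted p = 0.758). From the bean to the 2-fold stage, where null embryos had 14.7 and 18.8 CPM, against 52.0 and 125 CPM in wild-type embryos, the genotype effect changed by -3.14. This second difference was not tested, because it uses the 2-fold comparison that chose the genes. The first reversal was not particular to sams-1. sams-3, cka-1 and psd-1 were likewise lower in both null libraries in 190-cell embryos and higher in both in bean embryos. Their genotype effects differed by 2.54, 2.74 and 3.17, none passing edgeR's interaction test, and the median of all genes was 0.44. Of all genes tested, 25.0% were lower in that way at the 190-cell stage and 17.1% higher at the bean stage. The share that did both was not counted. The part that the shallow null 190-cell library or the germline, yolk and sperm markers have in these values was not tested.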

How the results depend on the processing

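With 21 alternatives per result, no alternative called any of the 8 genes between genotypes at the 190-cell stage or for the genotype effect, bean minus 190-cell. Voom called 1 between genotypes at the bean stage (mel-32), 2 from 190-cell to bean in wild-type (cbs-1 added), 1 from bean to 2-fold in wild-type (sams-1, -1.23, adjusted p = 0.0399) and 0 from 190-cell to bean in null embryos. Over all 12062 genes voom called 305, 1146, 2472 and 1 in these comparisons, in that order. The replicate block and the molecule-scaled counts each called 2 from 190-cell to bean in wild-type (cbs-1 added). Leaving out libraries in turn gave 0 to 1 called genes for that comparison and 0 to 2 for the same interval in null embryos. The direction of pmt-2 between genotypes at the 190-cell stage reversed with TMMwsp scaling (-0.10), the replicate block (-0.038) and molecule-scaled counts (-0.029). That of pmt-1 reversed at the bean stage under voom (-0.19). With libraries left out pmt-1 ran from -2.55 to 0.56 at the 190-cell stage and from -0.78 to 1.40 at the bean stage. The ratio of wild-type 2-fold pmt-2 to the null floor was 67.4-fold with 3 reads as the floor.

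Of the other pathway genes, null against wild-type at the 190-cell stage had 1 called with no filter, with the replicate block and in the compared groups alone, and 0 to 1 with libraries left out. At the bean stage voom called 2. From 190-cell to bean in wild-type, voom and molecule-scaled counts called 5, and 1 to 4 were called with libraries left out. From bean to 2-fold in wild-type, voom called 8, the filterByExpr filter 1, and 0 to 4 were called with libraries left out. From 190-cell to bean in null embryos, no filter and molecule-scaled counts called 3, the compared groups alone 4, the replicate block 2 and voom 0, and 0 to 2 were called with libraries left out.

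Over all genes, calls ran from 0 to 218 for 190-cell (main 26), 1 to 305 for bean (main 8), 0 to 97 for the genotype effect (main 11), 417 to 1146 and 233 to 2472 for the wild-type steps (main 606 and 525) and 1 to 1041 for the null step (main 641). Leaving out null 190-cell replicate 2 moved the median of all genes to -2.39 (main -0.20) between genotypes at the 190-cell stage, to 2.77 (main 0.44) for the genotype effect and to 3.61 (main 0.23) for the null step. Voom moved the same medians to 0.73, -1.05 and -0.95, and those between genotypes to -0.28 (main 0.00) at the bean and -0.42 (main -0.14) at the 2-fold stage. RLE size factors moved the median of all genes to -0.05 (main -0.20) at the 190-cell stage, to 0.27 (main 0.44) for the genotype effect and to 0.55 (main 0.19) for wild-type 2-fold minus bean, where TMMwsp gave 0.00. Replicate numbers did not pair the libraries: correlations of same-numbered libraries ran from -0.12 to 0.09 and 0 of 15 were over 0.1. The cause of these changes was not tested.

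Depth limits most of these values: 70 of the 96 rested on fewer than 20 estimated molecules.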
